A study of Daucus carota with 6 samples.

Results

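The genes described here are DCAR_010057.v1.0 and DCAR_023043.v1.0, taken by their identifiers, 2 of the 35073 genes in the table. Both carry the KEGG term for 15-cis-phytoene synthase, and by their RefSeq protein accessions they matched the DH1 v3.0 carrot genes named PSY2 and PSY1, respectively. They are called PSY2 and PSY1 from here on. They belong to 45 genes assigned to the KEGG map of carotenoid biosynthesis (ko00906), and the other 43 serve as the comparison.

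Phytoene synthase makes the first committed carotenoid, phytoene, from a pair of geranylgeranyl diphosphate (GGPP) molecules inside plastids. It is widely regarded as the step that sets how much carbon enters the carotenoid pathway, and in carrot the product ends as the alpha- and beta-carotene stored in root chromoplasts. Desaturases and isomerases then turn phytoene into lycopene, which cyclases, hydroxylases and epoxidases turn into carotenes, lutein and the xanthophylls that supply abscisic acid (ABA).

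RNA-seq was run on fleshy roots of carrot (Daucus carota), with 3 samples of non-transgenic plants (WT) and 3 of betanin-transgenic plants (BC). BC plants carry CYP76AD1S, cDOPA5GTS and DODA1S, which give the red betalain pigment betanin throughout the plant, per the series' design text. The labels give no age, cultivar or growth condition, do not say how many lines the BC samples came from or which promoters drive the introduced genes, and nothing says whether samples came from separate plants. P-values therefore measure the spread between these samples, which may be technical.

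Levels are in FPKM, sequenced fragments scaled to transcript length and library size, so levels of different genes can be compared per length. The FPKM summed to between 1141946 and 1186758 in WT samples and between 1184875 and 1287459 in BC samples, and the read depth is unknown. The groups differed widely: 46.4% of the 21033 genes tested were called in one direction or the other, 22.8% higher in BC and 23.5% lower. Each statement on the genes below has to be read against these shares. Of the markers searched by description, storage root allergens were abundant (summed FPKM of 6826 or more in every sample). Some of them are also described as pathogenesis-related proteins. The xylem markers were near 0, at a summed FPKM of 0.55 to 1.08 in WT and 2.45 to 7.66 in BC. All were too low to be tested, and without the filter on low values 4 of 8 were called higher in BC. The most abundant was a laccase-4-like gene (DCAR_015652.v1.0) at 4.80 FPKM or less.

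PSY2 was the main phytoene synthase transcript of the root, and it was higher in BC. It stood at 163, 212 and 185 FPKM in WT replicates 1 to 3 and at 354, 436 and 419 FPKM in BC replicates 1 to 3. The groups did not overlap, and the lowest BC sample was 1.67 times the highest WT sample. Mean levels were 187 ± 24.5 FPKM in WT and 403 ± 43.0 FPKM in BC (SD, n = 3 each), 2.16 times as high in BC. The log2 fold change of FPKM + 1 was 1.11 (SE 0.13, adjusted p = 8.80e-04, limma with Benjamini-Hochberg adjustment over all genes tested).

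PSY1 was a minor transcript in both groups, and it too was higher in BC. It stood at 7.92, 11.6 and 7.09 FPKM in WT replicates 1 to 3 and at 21.6, 17.6 and 24.7 FPKM in BC replicates 1 to 3. Again no sample of one group reached the range of the other, with the lowest BC sample at 1.53 times the highest WT sample. Mean levels were 8.85 ± 2.37 FPKM in WT and 21.3 ± 3.57 FPKM in BC (SD, n = 3 each), a ratio of 2.41. The log2 fold change was 1.19 (SE 0.20, limma adjusted p = 0.00382). Relative to its mean, PSY1 varied more between samples than PSY2, with a coefficient of variation of 26.8% in WT and 16.7% in BC, against 13.1% and 10.7% for PSY2.

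**Figure D1:**
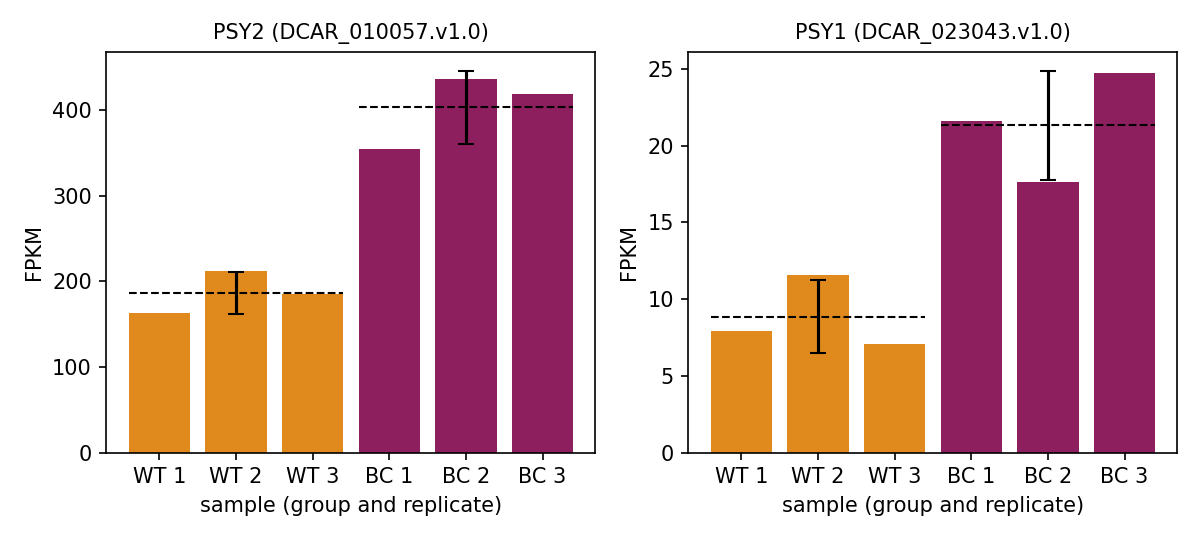
FPKM of PSY2 (left) and PSY1 (right) in each of the 6 samples, as bars, with a dashed line at each group mean and an error bar of 1 SD (n = 3). For both genes the 3 BC samples lie above the 3 WT samples, and the axes of the panels differ in scale.

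Both members were thus called higher, where 22.8% of all tested genes were. Both had all BC samples above all WT samples, as had 27.1% of tested genes, while 30.0% had them all below, and both were among the 12.7% called higher by at least 2-fold. By log2 fold change PSY2 ranked 2578th and PSY1 2369th of 21033 genes. A rise of this size was therefore common among these samples. The exact two-sided permutation test on each gene gave p = 0.1, the smallest value that 3 against 3 samples allow.

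The balance between the genes showed no detectable change. PSY2 was 20.6, 18.4 and 26.1 times as high as PSY1 in WT replicates 1 to 3, and 16.4, 24.7 and 16.9 times as high in BC replicates 1 to 3. These ranges overlapped. On the log2(FPKM + 1) scale the ratio was lower in BC by 0.08 on average, and an exact two-sided permutation test gave p = 0.6. The sign of this small difference turned with a pseudocount of 5 (0.16), without WT replicate 3 (0.04) and without BC replicate 1 (0.02). PSY2 made up 94.3% to 96.3% of the FPKM of both genes over the 6 samples. Within groups the genes did not follow the same order: in BC replicate 2 PSY2 was at its highest and PSY1 at its lowest BC level. RSEM divides reads shared by similar genes, so the split between PSY2 and PSY1 is uncertain.

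One more gene with the phytoene synthase KEGG term, DCAR_024333.v1.0, described as phytoene synthase 2-like, was barely detected. It was listed at 0 in WT replicates 1 and 3 and at 0.05 FPKM in WT replicate 2, and at 0.16, 0.05 and 0.11 FPKM in BC replicates 1 to 3, too low to be tested. Squalene synthase DCAR_021828.v1.0, which shares the protein domain of phytoene synthase but makes the sterol precursor squalene, was not called, at 48.2 ± 4.99 FPKM in WT against 52.7 ± 1.59 FPKM in BC (log2 fold change 0.13, limma adjusted p = 0.311). These genes were named after their values were seen.

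Among the carotenoid genes PSY2 was at the top of the order. It had the highest FPKM of the 45 ko00906 genes in 5 of 6 samples, the exception being WT replicate 1, where phytoene desaturase DCAR_016085.v1.0 was higher (185 against 163 FPKM). PSY1 ranked between 14th and 19th in WT and between 8th and 11th in BC. Together the phytoene synthase genes took 22.9%, 27.4% and 24.7% of the summed ko00906 FPKM in WT replicates 1 to 3 and 41.6%, 45.5% and 45.2% in BC replicates 1 to 3. The mean share was thus 25.0% ± 2.27 in WT and 44.1% ± 2.18 in BC (SD, n = 3 each, exact two-sided permutation p = 0.1, the smallest possible). The summed FPKM of the other 43 genes was 577 to 593 in WT and 528 to 543 in BC.

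Of those 43 genes, 19 were too low to be tested (4 of them listed at 0 in every sample) and 24 were tested. In BC 6 were called higher (25.0%) and 5 lower (20.8%), shares close to the 22.8% and 23.5% among all tested genes. Their median log2 fold change was -0.14, against -0.02 over all tested genes and 1.11 and 1.19 for PSY2 and PSY1. The phytoene synthase genes moved further up than all but 2 of the 24. This ranking leaves out carotenoid genes outside the map, some of which, described below, moved further up.

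**Figure D2:**
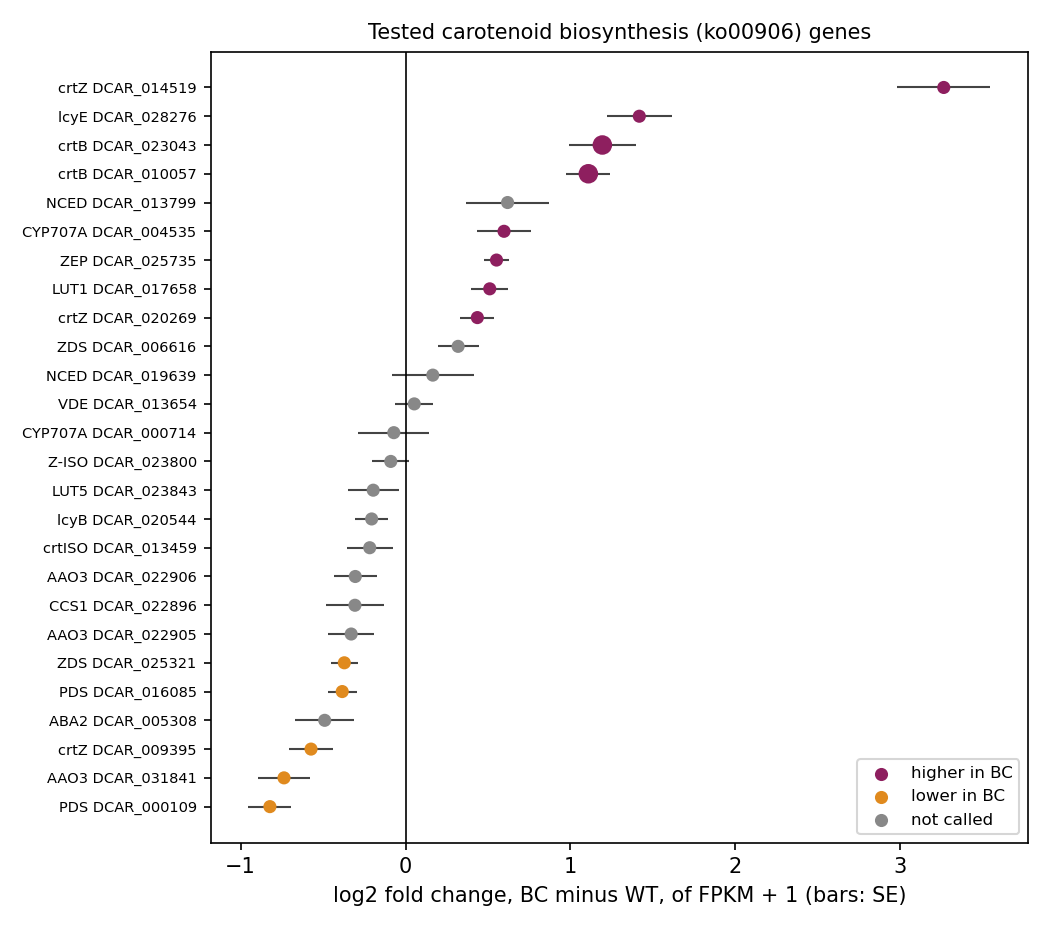
Log2 fold change (BC minus WT, of FPKM + 1) of the tested ko00906 genes, each with its SE, coloured by call, with gene labels from the KEGG terms. PSY2 and PSY1, the larger points labelled crtB, lie at 1.11 and 1.19, below only a beta-carotene hydroxylase (3.26) and lycopene epsilon-cyclase (1.42).

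Phytoene desaturase, which takes up the product of phytoene synthase, was lower in BC. DCAR_016085.v1.0 stood at 185, 187 and 184 FPKM in WT replicates 1 to 3 and at 143, 154 and 130 FPKM in BC replicates 1 to 3, with no overlap. Its log2 fold change was -0.38 (SE 0.09, limma adjusted p = 0.0125), no longer called without WT replicate 3 (limma adjusted p = 0.0519). A gene described as a partial phytoene dehydrogenase-like protein, DCAR_000109.v1.0, fell from 45.8 ± 7.22 to 25.3 ± 1.47 FPKM (log2 fold change -0.82, SE 0.13).

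The ratio of PSY2 to this desaturase did not overlap between the groups. PSY2 was 0.881, 1.13 and 1.005 times the level of phytoene desaturase in WT replicates 1 to 3, so that these neighbours in the order of levels did not differ beyond their spread. It was 2.49, 2.83 and 3.22 times that level in BC replicates 1 to 3. The exact two-sided permutation test of this ratio, added after the values were seen, gave p = 0.1, the smallest possible.

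The later steps to lycopene were lower or not called. One zeta-carotene desaturase gene, DCAR_025321.v1.0, fell from 31.2 ± 0.646 to 23.9 ± 0.975 FPKM (log2 fold change -0.37), while the other, DCAR_006616.v1.0, was at 8.94 ± 1.12 and 11.4 ± 0.537 FPKM and was called only with median-ratio scaling or without WT replicate 2 (limma adjusted p = 0.0429 and 0.0396). Zeta-carotene isomerase DCAR_023800.v1.0 was at 14.6 ± 1.07 and 13.7 ± 1.04 FPKM and carotenoid isomerase DCAR_013459.v1.0 at 42.1 ± 6.52 and 35.9 ± 3.63 FPKM, neither called. Over the list of desaturation and isomerisation genes, 3 of 8 tested members were called lower and the other 5 were not called, and the median log2 fold change was -0.15. The 3 uncalled genes named here were named after their values were seen.

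**Figure D3:**
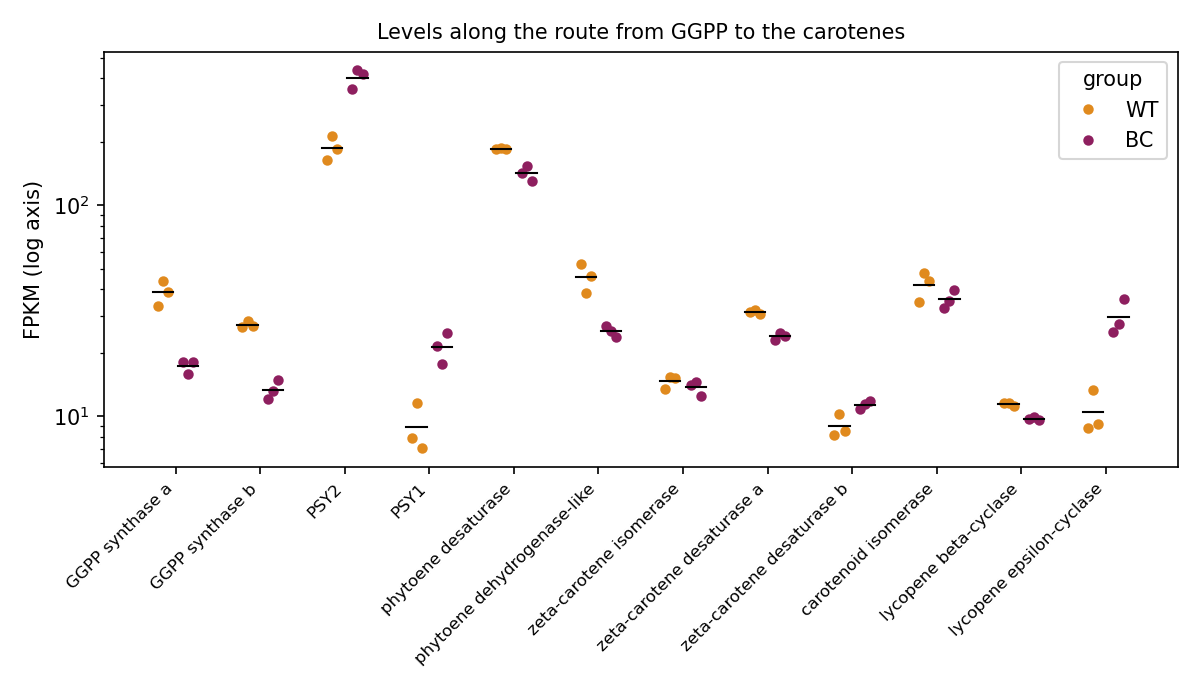
FPKM (log axis) of genes along the route from GGPP to the carotenes, with a point for each of the 3 WT and 3 BC samples and a black line at each group mean. PSY2, PSY1 and lycopene epsilon-cyclase are higher in BC, while the plotted GGPP synthase genes (DCAR_012751.v1.0 and DCAR_017220.v1.0) and the phytoene desaturase genes are lower.

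Genes after lycopene went both ways. Lycopene epsilon-cyclase DCAR_028276.v1.0, which opens the branch to alpha-carotene and lutein, was the ko00906 gene whose profile over the 6 samples was most like both PSY2 (Pearson r = 0.979 on log2(FPKM + 1)) and PSY1 (r = 0.979). It stood at 8.80, 13.3 and 9.16 FPKM in WT replicates 1 to 3 and at 25.0, 27.3 and 35.9 FPKM in BC replicates 1 to 3, without overlap (log2 fold change 1.42, SE 0.20, limma adjusted p = 0.00170). Lycopene beta-cyclase DCAR_020544.v1.0, needed for both carotenes, was not called, at 11.4 ± 0.225 FPKM in WT against 9.75 ± 0.140 FPKM in BC, and was picked with its values known.

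Beta-carotene hydroxylases, which make zeaxanthin, differed among themselves. DCAR_014519.v1.0 was at 0.56, 0.29 and 0.28 FPKM in WT replicates 1 to 3 and reached 14.6, 7.53 and 16.1 FPKM in BC replicates 1 to 3, a log2 fold change of 3.26 (SE 0.28). DCAR_020269.v1.0 rose from 26.5 ± 2.66 to 36.1 ± 1.71 FPKM and DCAR_009395.v1.0 fell from 9.46 ± 0.756 to 6.04 ± 0.703 FPKM. The carotenoid epsilon-hydroxylase of the lutein branch (DCAR_017658.v1.0, KEGG term LUT1) rose from 10.3 ± 0.987 to 15.1 ± 0.643 FPKM, no longer called without WT replicate 3 (limma adjusted p = 0.0507). Zeaxanthin epoxidase DCAR_025735.v1.0 rose from 45.1 ± 1.09 to 66.6 ± 2.39 FPKM. NEOXANTHIN-DEFICIENT 1 (novel3211), with the highest mean of these genes over the 6 samples, was at 66.9 ± 7.58 and 60.2 ± 4.83 FPKM and was not called. In the list of cyclisation, hydroxylation and epoxidation genes 6 of 13 tested members were called higher and 2 lower, or 1 lower when WT replicate 1 or 2 or BC replicate 1 or 3 was left out. In that list 4 tested genes had a log2 fold change above those of PSY2 and PSY1. Outside ko00906 these were the ABA DEFICIENT 4-like genes DCAR_025914.v1.0 (10.1 ± 1.46 to 37.6 ± 12.8 FPKM) and novel1939 (15.3 ± 1.96 to 45.8 ± 10.7 FPKM). Another gene so described, DCAR_017191.v1.0, fell from 41.4 ± 5.97 to 29.7 ± 2.08 FPKM. The ABA DEFICIENT 4-like genes were picked with their values known.

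Cleavage and ABA genes were mostly low. Of 20 genes in that list 7 were tested, 1 was called higher (2 without BC replicate 2) and 1 lower (2 without WT replicate 1, and none without WT replicate 3). The carotenoid cleavage dioxygenase DCAR_022390.v1.0 rose from 0.273 ± 0.0751 to 7.09 ± 2.13 FPKM. DCAR_022385.v1.0, described as a carotenoid 9,10-cleavage dioxygenase 1-like gene, fell from 75.6 ± 4.07 to 56.0 ± 5.32 FPKM, no longer called without WT replicate 3 (limma adjusted p = 0.0574). Among the ko00906 genes, an abscisic-aldehyde oxidase gene by its KEGG term, DCAR_031841.v1.0, fell from 45.4 ± 8.05 to 26.7 ± 3.74 FPKM.

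The genes that supply GGPP showed no common direction. Of 25 genes of the plastid methylerythritol phosphate (MEP) route and GGPP synthesis 21 were tested, 4 were called higher and 5 lower, and the median log2 fold change was -0.06. The count called higher was 2 without WT replicate 1 or BC replicate 3 and 1 without WT replicate 3 or BC replicate 1. Deoxyxylulose phosphate synthase, the entry enzyme of the route, was not called for its most abundant gene DCAR_030576.v1.0, at 168 ± 26.4 FPKM in WT against 185 ± 17.2 FPKM in BC, while DCAR_014178.v1.0, described as synthase 2, fell from 97.8 ± 28.7 to 37.6 ± 4.83 FPKM. Isopentenyl diphosphate isomerase DCAR_015080.v1.0, which interconverts the isoprenoid building blocks, rose from 68.3 ± 4.15 to 107 ± 19.3 FPKM, no longer called without WT replicate 3 or BC replicate 1 (limma adjusted p = 0.0537 and 0.0524).

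GGPP synthase makes the substrate of phytoene synthase, and its genes differed: of 6 tested with its KEGG term, 2 were called lower, 1 higher and 3 were not called. DCAR_012751.v1.0 stood at 33.3, 43.7 and 38.9 FPKM in WT replicates 1 to 3 and at 18.1, 15.9 and 18.0 FPKM in BC replicates 1 to 3, a log2 fold change of -1.11 (SE 0.12, limma adjusted p = 6.73e-04). DCAR_017220.v1.0 stood at 26.4, 28.4 and 26.7 FPKM in WT replicates 1 to 3 and at 12.02, 13.1 and 14.8 FPKM in BC replicates 1 to 3, a log2 fold change of -0.98 (SE 0.11). Neither gene overlapped between the groups, and the BC means were 0.448 and 0.490 times the WT means, against 2.16 times for PSY2. These genes, the uncalled GGPP synthase genes and the isomerase were named after their values were seen. The small subunit gene DCAR_016710.v1.0 (4.16 ± 1.28 and 7.68 ± 2.09 FPKM) was called higher by a narrow margin (adjusted p = 0.0495), but not in 10 of 16 alternatives, with adjusted p of up to 0.157 by limma. GGPP synthase genes DCAR_003739.v1.0 and DCAR_027312.v1.0 had identical values in all 6 samples, are not separate observations and were not called (2.95 ± 1.23 and 1.76 ± 0.452 FPKM). The other small subunit gene, DCAR_022830.v1.0, was at 33.7 ± 0.320 and 28.6 ± 2.30 FPKM and was not called (limma adjusted p = 0.0798).

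Search words for other users of GGPP or the related farnesyl diphosphate caught 16 tested genes. In BC 4 were called higher and 4 lower (25.0% each, against 22.8% and 23.5% of all genes). The count called higher was 2 when WT replicate 1 or 3 or BC replicate 1 was left out. The count called lower was 2 without WT replicate 3 or BC replicate 1. Not all of the enzymes caught take GGPP or farnesyl diphosphate as substrate. The GGPP reductase genes, whose enzyme makes the phytyl chain of chlorophyll and tocopherol, went opposite ways. DCAR_026055.v1.0 stood at 39.0, 46.8 and 34.9 FPKM in WT replicates 1 to 3 and at 195, 199 and 192 FPKM in BC replicates 1 to 3 (log2 fold change 2.26, SE 0.12, limma adjusted p = 2.04e-05). It too showed no overlap between the groups. DCAR_019413.v1.0, picked with its values known, fell from 67.3 ± 9.42 to 44.95 ± 2.90 FPKM (log2 fold change -0.56, limma adjusted p = 0.0101), also without overlap. Ent-kaurene oxidase DCAR_019485.v1.0, of gibberellin synthesis, acts on ent-kaurene and not on GGPP itself. It fell from 95.7 ± 6.90 to 54.5 ± 3.13 FPKM. The most abundant gene caught by these search words, homogentisate 1,2-dioxygenase DCAR_028453.v1.0, breaks down tyrosine and uses no GGPP. It was at 156 ± 32.6 and 136 ± 12.3 FPKM and was called only without WT replicate 2 (limma adjusted p = 0.0469).

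Light-signalling factors are known to act on phytoene synthase genes in Arabidopsis, where HY5 activates PSY, phytochrome-interacting factors repress it, PAR1 relieves that repression in shade and RAP2-2 binds its promoter. Of 17 genes in the list of partners and regulators 14 were tested. In BC 6 were called higher (42.9%, against 22.8% of all genes) and 4 lower (28.6%, against 23.5%). The search words also caught phytochrome A-associated F-box genes, of which DCAR_002826.v1.0 was called higher and DCAR_018339.v1.0 lower. Not every gene of the list is thus a known regulator of phytoene synthase. HY5 DCAR_003095.v1.0 stood at 10.4, 9.89 and 6.81 FPKM in WT replicates 1 to 3 and at 30.2, 23.6 and 35.6 FPKM in BC replicates 1 to 3 (log2 fold change 1.62, SE 0.20, limma adjusted p = 0.00111). No HY5 value of one group lay within the range of the other. The phytochrome-interacting factors PIF3 (DCAR_029297.v1.0, 25.5 ± 1.23 and 19.4 ± 5.80 FPKM) and PIF7-like (DCAR_026020.v1.0, 1.52 ± 0.110 and 1.40 ± 0.503 FPKM) were not called (limma adjusted p = 0.135 and 0.744).

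PAR1 DCAR_013315.v1.0 went the other way, from 7.39, 6.38 and 5.55 FPKM in WT replicates 1 to 3 to 0.68, 0.67 and 2.12 FPKM in BC replicates 1 to 3 (log2 fold change -1.84, SE 0.27). The photoreceptor gene phytochrome A (DCAR_001880.v1.0) fell from 91.2 ± 12.6 to 40.8 ± 6.54 FPKM. Phytochrome C (DCAR_012892.v1.0) rose from 68.0 ± 6.37 to 82.7 ± 3.45 FPKM (limma adjusted p = 0.0461). RAP2-2 (DCAR_007656.v1.0), the most abundant member, rose from 154 ± 10.8 to 189.8 ± 2.11 FPKM (adjusted p = 0.0242), but not with samples rescaled to equal totals, with the replicate block or when WT replicate 3 or BC replicate 1 or 2 was left out, with adjusted p of 0.0580 to 0.0961 by limma. STAY-GREEN, whose tomato homologue is known to bind phytoene synthase, fell from 39.4 ± 4.64 to 8.09 ± 0.595 FPKM for DCAR_008432.v1.0, while DCAR_000893.v1.0 was at 37.4 ± 6.98 and 57.0 ± 13.5 FPKM and was not called. The STAY-GREEN LIKE genes DCAR_031492.v1.0 and DCAR_014396.v1.0 rose from 0.533 ± 0.267 to 8.81 ± 5.62 FPKM and from 2.31 ± 1.28 to 14.7 ± 5.01 FPKM. HY5, PAR1, phytochromes A and C, the PIF genes, the F-box genes, DCAR_000893.v1.0 and DCAR_014396.v1.0 were named after their values were seen.

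**Figure D4:**
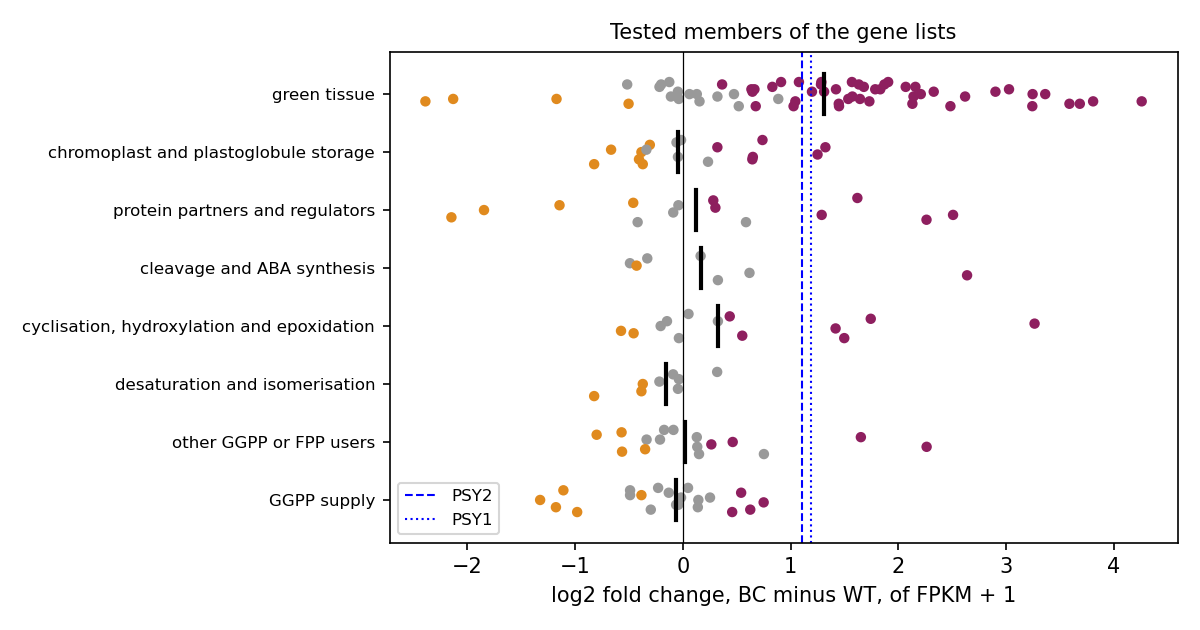
Log2 fold change (BC minus WT, of FPKM + 1) of the tested members of the pathway, regulator, storage and green tissue lists, purple if called higher, orange if called lower and grey if not called, with a black bar at each median. The dashed and dotted lines mark PSY2 (1.11) and PSY1 (1.19), which lie near the median of the green tissue list (1.31) and above the other medians plotted. Cambium (1.81) and storage root allergens (1.30), not plotted, also had medians above both.

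Plastoglobule and chromoplast genes, which serve carotenoid storage, showed no common direction. Of 17 tested, 6 were called higher (35.3%, against 22.8% of all genes) and 6 lower (35.3%, against 23.5%). The count called lower was 3 without WT replicate 3, and the median log2 fold change was -0.04. The plastid-lipid-associated protein 7 gene DCAR_027256.v1.0 rose from 5.88 ± 2.07 to 15.9 ± 2.76 FPKM. The search words also caught genes of other function, such as the most abundant, cysteine synthase DCAR_027516.v1.0 (192 ± 4.54 and 302 ± 25.8 FPKM). Among the genes called lower they caught DCAR_016085.v1.0, DCAR_000109.v1.0 and DCAR_025321.v1.0, already counted in the desaturation list.

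Phytoene synthase also serves chloroplasts, and most tested markers of green tissue were, like PSY2 and PSY1, higher in BC. Of 74 such genes 63 were tested, 45 were called higher (71.4%, against 22.8% of all genes) and 4 lower (2 without WT replicate 3 or BC replicate 1), with a median log2 fold change of 1.31. Their summed FPKM was 6517 to 9805 in WT and 22151 to 26237 in BC, 3.06 times as high on average, and 7 were listed at 0 in every sample. Within groups this sum did not follow PSY2: replicate 1 had the highest sum and the lowest PSY2 level in WT and in BC alike. The most abundant of these markers, the light-harvesting gene DCAR_019707.v1.0, stood at 455, 228 and 336 FPKM in WT replicates 1 to 3 and at 3810, 3151 and 5081 FPKM in BC replicates 1 to 3. The light-harvesting gene novel538 rose from 4.38 ± 3.52 to 88.8 ± 20.8 FPKM. The photosystem II gene psbZ (DCAR_032481.v1.0) fell, from 4.24 ± 0.255 FPKM in WT, and was listed at 0 in the 3 BC samples. At so low a level a listing of 0 need not mean that the gene was silent. Whether mRNA purification kept the transcripts of psbZ and of the markers listed at 0 in every sample was not tested. The part of these markers in the phytoene synthase result was not tested.

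Other tissue markers moved too, and in bulk samples fewer cells of a type and less RNA per cell cannot be told apart. Of 13 tested phloem markers 7 were called lower and the other 6 were not called, with a summed FPKM of 586 to 1297 in WT and 282 to 359 in BC. The PHLOEM PROTEIN 2-LIKE A1-like genes novel558 and novel381 fell from 419 ± 247 to 40.7 ± 29.7 FPKM and from 96.9 ± 60.1 to 1.54 ± 2.67 FPKM. Markers not called included a sucrose transporter gene, DCAR_014266.v1.0, at 193 ± 18.2 and 188 ± 28.7 FPKM. SIEVE ELEMENT OCCLUSION B-like genes DCAR_011272.v1.0 (1.90 ± 1.11 and 3.59 ± 2.64 FPKM) and DCAR_015068.v1.0 (2.03 ± 1.23 and 2.97 ± 2.34 FPKM) were not called either. These uncalled genes were picked with their values known. The sucrose transporter SUC3 (DCAR_031034.v1.0) was at 32.6 ± 0.711 and 26.1 ± 2.65 FPKM, called lower but not in 7 alternatives. Without WT replicate 1, 1 phloem marker was called higher. The cambium marker WUSCHEL-related homeobox 4 (DCAR_019432.v1.0), a stem cell regulator, rose from 9.68 ± 3.96 to 37.1 ± 16.3 FPKM. Of 8 tested periderm markers 4 were called higher, 1 lower and 3 were not called, with a summed FPKM of 65.2 to 79.9 in WT and 129 to 159 in BC. The counts and sums include DCAR_022098.v1.0, called higher (14.0 ± 0.740 and 31.9 ± 2.28 FPKM). It is described as a 1-acyl-sn-glycerol-3-phosphate acyltransferase, was caught by the search words only and was picked with its values known. Omega-hydroxypalmitate O-feruloyl transferase, an enzyme of suberin synthesis, rose from 6.43 ± 1.31 to 47.5 ± 5.53 FPKM for DCAR_000388.v1.0 and from 0.0967 ± 0.167 to 8.20 ± 2.75 FPKM for DCAR_026998.v1.0. Its gene DCAR_019247.v1.0 fell from 2.73 ± 0.252 to 1.67 ± 0.246 FPKM, but was not called with any one of WT replicates 1 to 3 or BC replicate 1 or 2 left out, while 2 periderm markers were lower without BC replicate 3.

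Of 7 tested storage root allergens 4 were called higher, 1 lower and 2 were not called. DCAR_023315.v1.0, DCAR_027033.v1.0 and DCAR_027034.v1.0 of this list are also described as pathogenesis-related proteins, so the list need not mark storage tissue. DCAR_023315.v1.0 stood at 2.39, 3.27 and 5.34 FPKM in WT replicates 1 to 3 and at 223, 626 and 54.6 FPKM in BC replicates 1 to 3, a wide spread within BC. DCAR_023311.v1.0 was at 3.003 ± 1.71 and 0.0700 ± 0.121 FPKM and was called lower, and the most abundant, novel322, was at 4272 ± 461 and 7075 ± 2050 FPKM and was not called, except without BC replicate 3 and with 2 other variance models (limma adjusted p = 0.0247, 0.0489 and 0.0455). Their part in the phytoene synthase result was not tested either.

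Many genes had a profile close to that of either member. Among tested genes, 1675 had a Pearson r above 0.95 with PSY2 over the 6 samples and 1125 with PSY1; the difference between the groups is itself part of these correlations. With an informative description, the closest to PSY2 were an F-box protein At1g61340-like gene (DCAR_004138.v1.0), a nodulin homeobox-like gene (DCAR_005834.v1.0), ferric reduction oxidase 8 (DCAR_026171.v1.0), a VAN3-binding protein (novel1408) and the auxin synthesis gene YUCCA3 (DCAR_027361.v1.0), at r of 0.997 to 0.999. The closest to PSY1 were a DETOXIFICATION 48-like transporter (DCAR_012838.v1.0), the chaperone dnaJ 16 (DCAR_007108.v1.0), ASPARTIC PROTEASE IN GUARD CELL 1 (DCAR_007230.v1.0), a galacturonosyltransferase-like gene (DCAR_012757.v1.0) and translation initiation factor 3 subunit L (DCAR_007707.v1.0), at r of 0.997 to 0.999. The members shared none of these genes, and their own r was 0.934. With group means subtracted, which leaves only the differences among replicates, r between PSY2 and PSY1 was 0.363.

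The genes around PSY2 and PSY1 in the RefSeq gene order of DH1 v3.0, 5 places on each side, were examined to see whether either change was shared with its surroundings. Around PSY2 6 neighbours were tested, 2 were called higher and 1 lower. Around PSY1 7 were tested, 2 were called higher and 1 lower. Among all tested genes 22.8% were called higher and 23.5% lower, and counts this small cannot be told apart from those shares.

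The gene directly after PSY2 changed far more than PSY2. DCAR_010058.v1.0, described as a putative ALA-interacting subunit 4, a family that partners lipid flippases in Arabidopsis, stood at 1.66, 1.56 and 1.85 FPKM in WT replicates 1 to 3 and at 62.8, 80.1 and 77.8 FPKM in BC replicates 1 to 3. The groups were far apart, with a log2 fold change of 4.79 (SE 0.13, limma adjusted p = 1.83e-06), the 80th highest of 21033. It was named after its values were seen. Whether its reads and those of PSY2 overlap was not tested. Expansin-A13 (DCAR_010061.v1.0), a cell wall loosening protein 4 places after PSY2, rose from 64.6 ± 5.34 to 80.8 ± 5.27 FPKM, and the gene directly before PSY2 (DCAR_010056.v1.0) was not called.

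Near PSY1 the directly preceding gene, the JASON-like DCAR_023044.v1.0, was at 0.650 ± 0.489 and 1.57 ± 0.848 FPKM and was not called. The photosystem II gene oxygen-evolving enhancer 2 (DCAR_023039.v1.0), 3 places after PSY1, rose from 189 ± 25.0 to 392 ± 66.2 FPKM. The GDSL esterase/lipase gene DCAR_023048.v1.0, 5 places before PSY1, rose from 0.317 ± 0.293 to 1.49 ± 0.423 FPKM. DCAR_023037.v1.0, an uncharacterized gene 5 places after PSY1, fell from 15.5 ± 1.25 to 7.49 ± 2.30 FPKM. The neighbours described here were named after their values were seen.

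**Figure D5:**
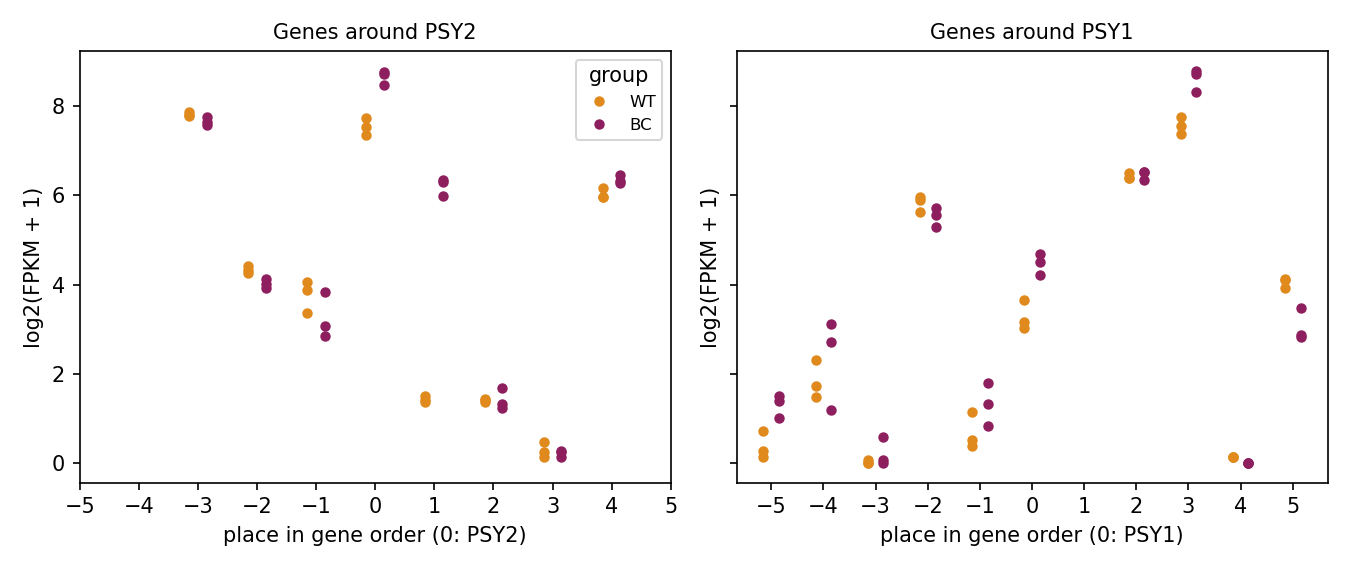
Log2(FPKM + 1) in each of the 3 WT and 3 BC samples for the genes up to 5 places before and after PSY2 (left) and PSY1 (right) in the RefSeq gene order, with no points for places without a matching gene in the table. The gene 1 place after PSY2 (log2 fold change 4.79) shows the widest gap between the groups.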

How the data were processed

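Purified mRNA from fleshy roots was sequenced in 3 WT and 3 BC samples. The authors deposited a table of FPKM per gene, and RSEM is named, without a version, in the submitters' processing notes. For aligner, genome build and annotation, the sources used here give nothing. RSEM divides reads shared by similar genes, so levels of close copies are uncertain. FPKM are shares of a library, and without counts no depth or counting error can be given.

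A gene was tested if 3 or more samples reached 1 FPKM, by limma 3.58.1 (R 4.3.3) on log2(FPKM + 1) (trended empirical Bayes, Benjamini-Hochberg adjustment over 21033 genes, called at an adjusted p under 0.05). Fold changes on this scale understate low genes. Single ratios and shares were compared by exact permutation. On simulated data with 21033 genes, of which 200 were changed, 50% of genes changed by 1 and 82% of those changed by 2 (log2) were recovered. Far fewer genes were changed there than were called in these data, so the rates need not apply here. Figures were drawn with matplotlib 3.10.9.

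Genes named were the members, called ko00906 genes reaching 5 FPKM in a group mean, each list's most abundant gene and its called extremes of change, and the closest profiles. Exceptions are stated. Members and lists were chosen with earlier results of these data known. Alternatives covered the pseudocount, filter, scaling, variance model, replicate block and each left-out sample.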

Additional observations from a re-analysis of the deposited data

How the results depend on the processing

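The calls of PSY2 (log2 fold change 1.006 to 1.20) and PSY1 (0.93 to 1.38) were kept under all 16 alternatives tried, with adjusted p of at most 0.00654 and 0.0229 (limma). The log2 ratio between them, -0.08, became 0.16 with a pseudocount of 5, 0.042 without WT replicate 3 and 0.020 without BC replicate 1, with -0.27 as the lowest value when a sample was left out. The median log2 fold change of the other ko00906 genes, -0.14, was -0.032 without a filter, -0.23 with equal totals and -0.25 with quantile normalization. It ran from -0.20 to -0.09 with single samples left out. Over all genes 3193 to 5203 were called lower with single samples left out, the lowest without WT replicate 3, against 4943. The causes were not tested.

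Deviations from the group means had correlations of 0.196, -0.356 and -0.195 between samples with the same replicate number. Between samples with other numbers they ran from -0.305 to 0.394. With 3 samples a group, these values cannot decide whether the number pairs the samples. With the replicate block PSY2 kept its log2 fold change of 1.11 (adjusted p = 0.00254, limma), and 4032 genes were called higher and 3921 lower, against 4806 and 4943.

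Without counts, depth limits cannot be given for low genes such as DCAR_024333.v1.0.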

Other observations

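With group means subtracted, the tested genes most like PSY2 over the 6 samples were a potassium transporter 25-like gene (DCAR_003533.v1.0, Pearson r = 0.998), a plastid 50S ribosomal protein L1-like gene (novel162), nucleoredoxin 1-2 (DCAR_012805.v1.0), a trehalose-phosphate phosphatase A-like gene (DCAR_009441.v1.0) and a methylcrotonoyl-CoA carboxylase subunit (DCAR_002710.v1.0). Those most like PSY1 were the plastid import protein TIC 21 (DCAR_021989.v1.0, r = 0.998), an NADP-dependent malic enzyme (DCAR_000763.v1.0), a 5'-nucleotidase domain gene (novel3153), clathrin interactor EPSIN 1 (DCAR_004452.v1.0) and a polygalacturonase (DCAR_029882.v1.0). With 3 samples a group these values are a description of the samples.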
